A study of Oryctolagus cuniculus with 6 samples.

Results

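The genes described here encode the presynaptic release machinery and the ribbon synapse of the retina. They were taken by symbol from a list of 36 genes of synaptic vesicles, vesicle release and the photoreceptor ribbon synapse. The tables held 34 of the 36 under their own symbol, among 28788 genes in all. RAB3A and SYT3 were not matched by symbol and are not analysed here.

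RNA-seq of retina from a rabbit model of proliferative vitreoretinopathy (PVR) compared 3 normal samples (normal 1 to 3) with 3 PVR samples (PVR 1 to 3). PVR is a scarring disease in which membranes grow on the retina and pull on it. The model used adult rabbits. The sclera was punctured, some vitreous was withdrawn and platelet-rich plasma was injected into the vitreous cavity. The labels give no treatment for the normal samples. The strain, the time between injection and collection, and whether each sample came from its own animal are not given in the sources used here. The p-values below therefore measure the spread between these samples, which may be partly technical. The values are those of whole retina, so fewer cells of a type and less RNA per cell cannot be told apart.

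In a presynaptic terminal, vesicles loaded with transmitter dock at an active zone and fuse with the membrane when calcium enters. Fusion is driven by SNARE proteins, sensed by synaptotagmins and held in check or promoted by complexins. Photoreceptors and bipolar cells of the retina release glutamate continuously, with the release graded by light. Their terminals carry a ribbon, a plate built on the protein RIBEYE that tethers vesicles beside L-type calcium channels. Conventional synapses, such as those of amacrine cells, lack a ribbon and use other members of the same families.

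Between 31904593 and 43035080 reads were counted per sample. All 34 genes passed the filter on low counts, and the lowest count of any of them in any sample was 86 (SYT2 in PVR 2). Retinal markers were present in every sample, with GNAT1, the transducin of rods, at a mean of 1074 FPKM (fragments per kilobase of gene, scaled to the sample's total count) in normal and 929.6 in PVR samples. Normal 2 also held lens RNA, with 9 lens genes summing to 32692 CPM (counts scaled to a common library size) against 15.6 and 12.2 in normal 1 and normal 3 and 261 to 300.1 in the PVR samples. The 34 presynaptic genes together took 1.31%, 1.13% and 1.26% of the counts in normal 1 to 3. In PVR 1 to 3 they took 1.26%, 1.22% and 1.26%. These ranges overlapped. The share was lowest in normal 2, whose total count includes its lens RNA.

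The comparison of PVR with normal retina asked which genes of the release machinery differ in the model. None of the 34 genes passed an adjusted p of 0.05 (edgeR quasi-likelihood, adjusted after Benjamini and Hochberg over the 18697 genes tested). It called 1.09% of all genes higher and 0.615% lower, and 0 calls among 34 genes is near that background. With a log2 fold change beyond 1 required as well, 0 of 34 genes and 1.01% of all genes passed. At an unadjusted p under 0.05 there were 6 of the 34 genes (17.65%), against 3963 genes (21.2%) in all. UNC13B was the higher one, and SV2B, SLC17A7, NSF, CTBP2 and CACNA1F were lower. The number was 0 without PVR 1 (2424 of 19231 genes in all), 2 without PVR 2 (2922 of 19213) and 8 without PVR 3 (4675 of 19189). It was 3 without normal 1 (3193 of 19413), 4 without normal 2 (3072 of 19198) and 4 without normal 3 (4390 of 19187). The number over all genes thus moved with the sample left out as well.

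DESeq2, run on the same counts as an alternative, called SV2B lower (adjusted p = 0.0286) and UNC13B higher (adjusted p = 0.0494). It called more of all genes too, 6.12% higher and 3.96% lower. A single gene among 34 (2.94%) is below both shares.

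The differences were small and closely bounded. The 95% interval of the log2 fold change lay within 1 in either direction for 33 of the 34 genes (97.1%), which leaves out a doubling or a halving, and SYT2 was the exception. Over all genes tested, 61.4% had such an interval. An interval within 0.5 was found for 22 of the 34 (64.7%) and for 30.7% of all genes. The median distance from the estimate to the end of its interval was 0.256 log2 units for the 34 genes and 0.46 for all genes. These comparisons with all genes were not matched for abundance, on which the width of an interval depends.

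Fitted values leaned to the lower side. The log2 fold change was negative for 25 of the 34 genes (73.53%) and for 51.08% of all genes. Its median was -0.13 over the 34 and -0.01 over all genes, with a range from -0.49 (SYT2) to 0.32 (UNC13B). No test was made of the list as a whole. The TMM factors, which correct for the makeup of each library, lower the PVR samples by 0.07 log2 units relative to FPKM values. On the log2(FPKM + 1) scale the negative values numbered 22 and the median was -0.06, beside 0.04 over all genes. Leaving out 1 sample moved the median of the 34 between -0.18 (without normal 2) and -0.08 (without normal 3).

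**Figure D1:**
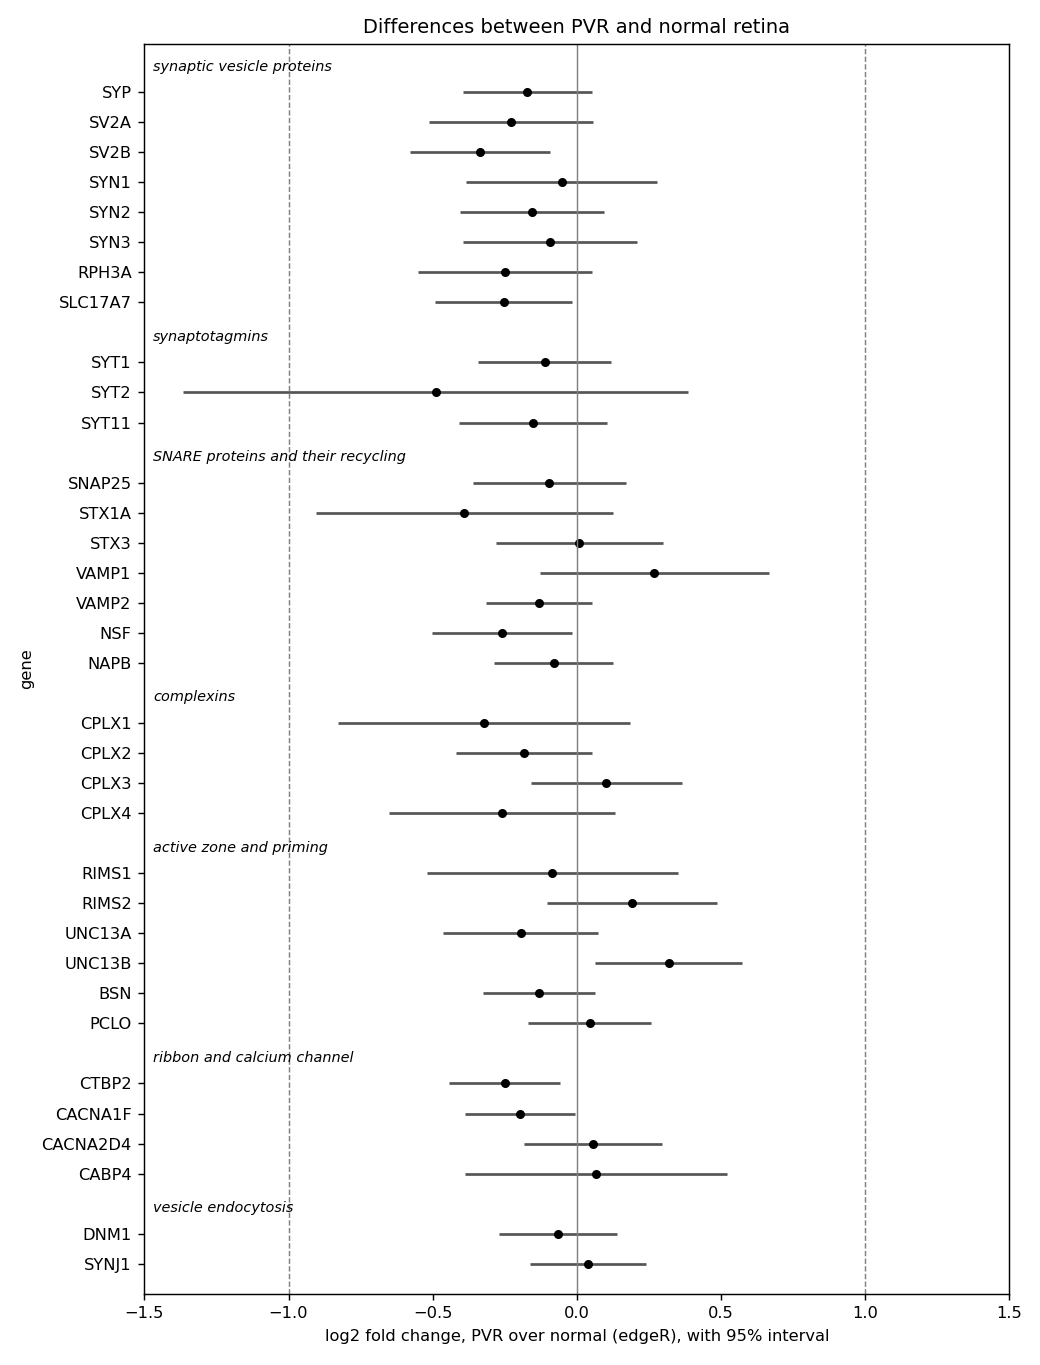
The log2 fold change of PVR over normal from edgeR (x axis) for each of the 34 genes (y axis, grouped by role), with points for estimates and bars for 95% intervals. The dashed lines mark a change of 1 log2 unit in either direction, and the interval of SYT2 alone reaches past one of them.

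Separation of the samples was read from the values as well. In CPM scaled by TMM, all 3 PVR samples lay above all 3 normal samples for 1 of the 34 genes (2.94%), UNC13B, against 13.4% of all genes. They lay below them for 10 genes (29.4%), against 14.6% of all genes. In FPKM, which uses the total count only, 1 gene lay above (2.94%, against 17% of all genes) and 4 lay below (11.8%, against 9.69%). The 4 genes below in FPKM were SV2B, SLC17A7, CTBP2 and CACNA1F. In CPM these 4 were joined by SYN2, SYN3, VAMP2, NSF, UNC13A and BSN. The number of genes below thus depended on the scaling, and the total count of normal 2 includes its lens RNA.

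FPKM values divide by gene length, so levels of different genes are compared on that scale. SNAP25 was the most abundant of the 34, with a level above that of 99.71% of the genes tested, followed by CPLX4 at 99.38%. SYT2 was the least abundant, at a mean of 0.958 FPKM in normal samples, against 467 FPKM for SNAP25. Long gene models spread their reads thinly, and those of RIMS2 (34475 bases), UNC13B (20426) and PCLO (20291) were far longer than that of SYP (1011).

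**Figure D2:**
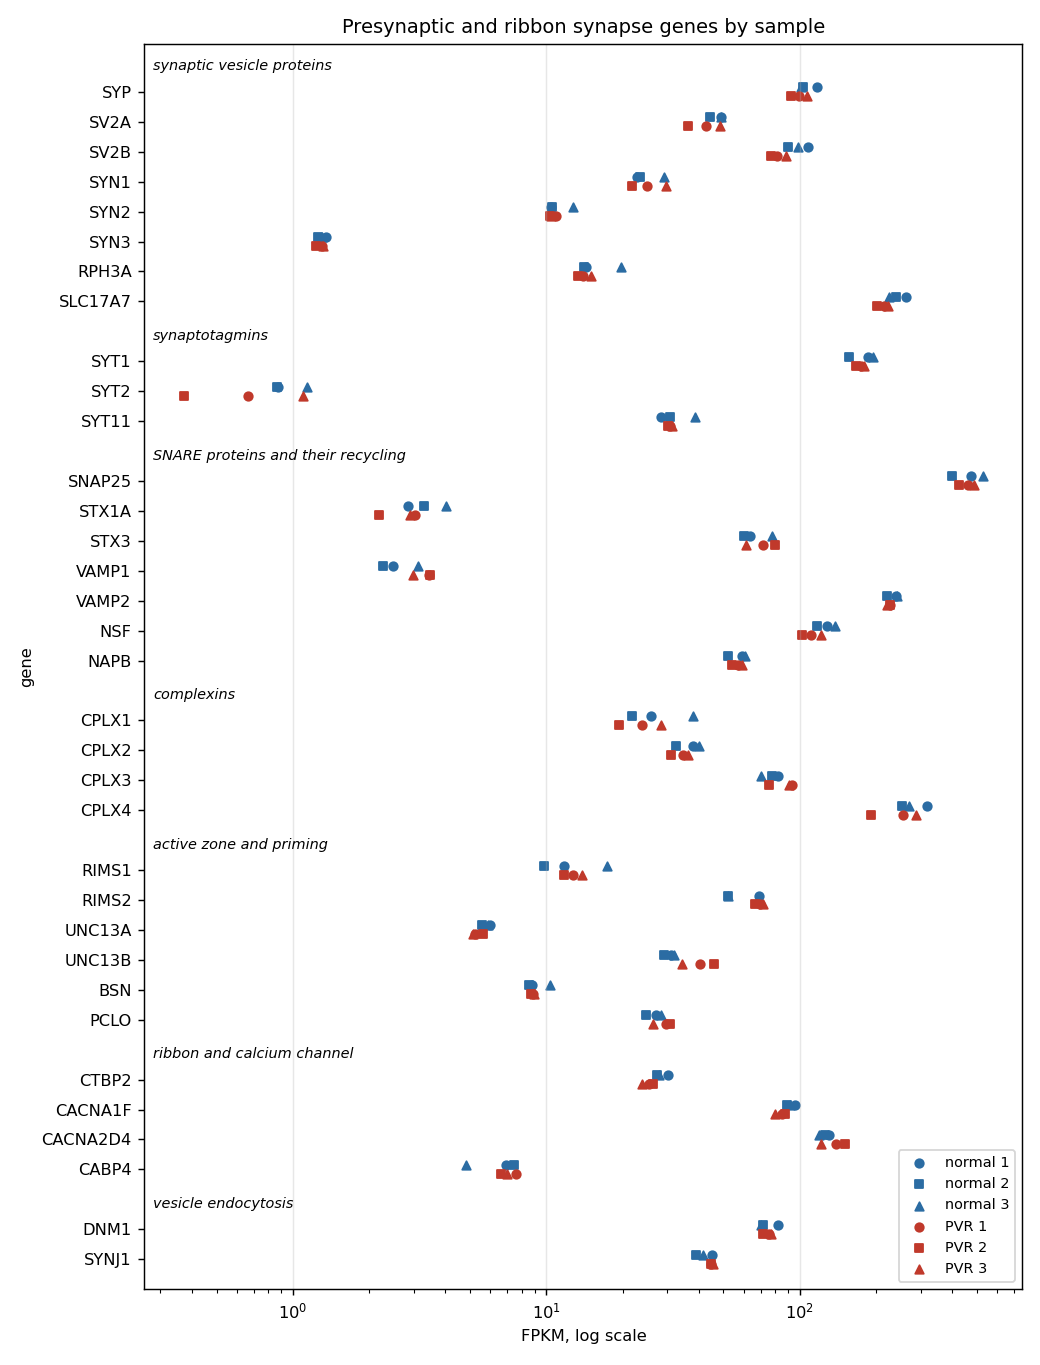
FPKM on a log axis (x) for each of the 34 genes (y, grouped by role) in each sample, with normal samples in blue and PVR samples in red. Blue and red points lie together for most genes, while UNC13B lies higher in PVR and SV2B, SLC17A7, CTBP2 and CACNA1F lie lower without overlap.

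The vesicle proteins came first by role. All 8 had a negative fold change in edgeR, with a median of -0.20, and none passed the adjusted test. SYN1, a synapsin that holds vesicles in reserve, was at 0.01 on the log2(FPKM + 1) scale, so the sign was not shared by all 8 there. SV2B, a vesicle glycoprotein that is abundant in photoreceptor terminals, had the largest difference of this group. Its level was 108, 90.1 and 98.0 FPKM in normal 1 to 3 and 81.0, 77.1 and 88.2 in PVR 1 to 3. Each PVR sample lay below each normal sample. The log2 fold change of SV2B was -0.34 (SE 0.10, 95% interval -0.58 to -0.09; adjusted p = 0.136, edgeR).

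SLC17A7 encodes VGLUT1, the transporter that fills the vesicles of photoreceptors and bipolar cells with glutamate. It stood at 263, 239 and 226 FPKM in the normal samples and at 216, 202 and 224 in the PVR samples. The groups did not overlap, though normal 3 and PVR 3 were nearly level. On the log2 scale the difference was -0.25 (SE 0.10, 95% interval -0.49 to -0.02; adjusted p = 0.211, edgeR).

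The other vesicle genes overlapped between groups in FPKM. SYP, the vesicle membrane protein synaptophysin, averaged 107 ± 8.57 FPKM in normal and 99.6 ± 7.35 in PVR samples (SD, n = 3 each). SV2A, the widely expressed relative of SV2B, averaged 47.4 ± 2.58 and 42.4 ± 6.16 FPKM. PVR 2 was the lowest sample for both. RPH3A, rabphilin, which binds vesicles through RAB3, ranged from 14.0 to 19.7 FPKM in normal and from 13.4 to 15.01 in PVR samples. The synapsins differed little, SYN2 lying between 10.3 and 12.8 FPKM and SYN3 between 1.24 and 1.35 over all 6 samples.

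Calcium sensors were next. SYT1, the main fast sensor for release, was measured at 185, 156 and 195 FPKM in normal and 175, 166 and 179 in PVR samples, which overlapped. SYT11, a synaptotagmin that does not bind calcium in the usual way, ranged from 28.5 to 38.6 FPKM in normal and from 30.2 to 31.2 in PVR samples. SYT2 is a fast sensor of many inhibitory and some retinal neurons. It was at 0.874, 0.862 and 1.14 FPKM in normal and at 0.664, 0.373 and 1.09 in PVR samples. PVR 3 lay within the normal range while PVR 2 was far below it. The log2 fold change of -0.49 (SE 0.38) had a 95% interval from -1.37 to 0.39, the widest of the 34, and an adjusted p of 0.475 in edgeR. Single samples moved it widely, to -0.18 without PVR 2 and to -0.96 without PVR 3.

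The SNARE proteins form the bundle that pulls vesicle and plasma membrane together. SNAP25, the membrane SNARE shared by most neurons, stood at 475, 400 and 526 FPKM in normal and 463, 425 and 486 in PVR samples. The PVR values lay inside the normal range, and the log2 fold change was -0.10 (95% interval -0.36 to 0.17; adjusted p = 0.655, edgeR). VAMP2, the vesicle SNARE synaptobrevin, was at 239, 221 and 243 FPKM against 226, 227 and 220. Its difference of -0.13 log2 units (95% interval -0.32 to 0.05) did not pass either. VAMP1, its rarer relative, was at 2.48, 2.27 and 3.11 FPKM in normal and 3.45, 3.49 and 2.99 in PVR samples. The groups overlapped through normal 3 and PVR 3, with a log2 fold change of 0.27 (SE 0.17, 95% interval -0.13 to 0.67).

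Ribbon terminals use STX3 as their syntaxin, whereas conventional terminals use STX1A. STX3 was at 63.8, 60.3 and 77.4 FPKM in normal and 71.4, 79.8 and 61.5 in PVR samples. The ranges overlapped almost wholly, and the log2 fold change was 0.01 (SE 0.12, 95% interval -0.28 to 0.30). STX1A was much scarcer, at 2.83, 3.29 and 4.02 FPKM in normal and 3.02, 2.19 and 2.89 in PVR samples. PVR 2 was again the lowest, and the log2 fold change of -0.39 (SE 0.22) had a 95% interval from -0.90 to 0.12 (adjusted p = 0.343, edgeR). It was -0.25 without PVR 2.

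NSF is the ATPase that takes used SNARE bundles apart, and NAPB (beta-SNAP) attaches it to them. NSF averaged 127 ± 10.6 FPKM in normal and 112 ± 9.46 in PVR samples (SD, n = 3 each), and PVR 3 lay among the normal samples on that scale. Its log2 fold change was -0.26 (SE 0.10, 95% interval -0.50 to -0.02), with an adjusted p of 0.215 in edgeR. NAPB ranged from 52.3 to 60.6 FPKM in normal and from 53.9 to 59.3 in PVR samples.

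Complexins bind the SNARE bundle. CPLX3 and CPLX4 are the forms of ribbon synapses, and CPLX1 and CPLX2 those of conventional ones. CPLX4 was the most abundant, at 318, 253 and 269 FPKM in normal and 256, 192 and 287 in PVR samples. Its groups overlapped, PVR 2 being the lowest sample and normal 1 the highest. Its log2 fold change was -0.26 (SE 0.17, 95% interval -0.65 to 0.13; adjusted p = 0.403, edgeR), which became -0.10 without PVR 2 and -0.41 without PVR 3.

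CPLX3 was at 82.1, 78.0 and 70.5 FPKM in normal and 93.0, 75.8 and 90.9 in PVR samples. Its estimate was positive, 0.10 log2 units (SE 0.11, 95% interval -0.16 to 0.36), with overlapping groups. CPLX1 was at 25.99, 21.7 and 37.9 FPKM in normal and 23.9, 19.4 and 28.2 in PVR samples. Normal 3 stood well above the other samples, and the log2 fold change of -0.32 (SE 0.22) became -0.08 without it, but -0.47 without normal 2 and -0.48 without PVR 3. CPLX2 ranged from 32.4 to 40.0 FPKM in normal and from 30.9 to 36.2 in PVR samples.

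Active zone proteins prepare vesicles for fusion. UNC13B (Munc13-2), a priming factor of photoreceptor ribbon synapses, had the largest positive estimate of the 34 genes. It was at 31.2, 29.1 and 31.8 FPKM in normal and 40.4, 45.7 and 34.4 in PVR samples. The PVR samples all lay higher than the normal ones, with PVR 3 the nearest to them. On the log2 scale UNC13B differed by 0.32 (SE 0.11, 95% interval 0.06 to 0.57; adjusted p = 0.166, edgeR). Leaving out 1 sample at a time gave values between 0.23 and 0.41. UNC13A, the priming factor of most other synapses, ranged from 5.56 to 6.01 FPKM in normal and from 5.15 to 5.65 in PVR samples, and its log2 fold change was -0.19 (adjusted p = 0.366, edgeR).

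RIMS2 encodes the RIM protein that supports calcium channels at ribbons. It was at 68.9, 51.9 and 52.2 FPKM in normal and 69.4, 66.5 and 71.4 in PVR samples. Normal 1 lay within the PVR range, so the groups overlapped, and the log2 fold change was 0.19 (SE 0.13, 95% interval -0.10 to 0.49). It was 0.34 without normal 1 and 0.12 without normal 3. RIMS1, the RIM protein of conventional synapses, had the largest spread of the 34 genes among the normal samples, with a coefficient of variation of 30.1% in FPKM. Its values were 11.7, 9.81 and 17.3 FPKM against 12.7, 11.8 and 13.8, and its log2 fold change of -0.09 became 0.17 without normal 3 and -0.23 without normal 2.

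Bassoon (BSN) and piccolo (PCLO) are giant scaffolds, and bassoon anchors the ribbon to the active zone. BSN stood at 8.78, 8.52 and 10.3 FPKM in normal and 8.84, 8.69 and 8.93 in PVR samples. PCLO stood at 27.1, 24.7 and 28.3 against 29.6, 30.9 and 26.2. Both genes overlapped between groups in FPKM. In TMM-scaled CPM, BSN was at 141, 141 and 163 in normal and 136, 132 and 139 in PVR samples. Its groups were thus apart on that scale, while those of PCLO overlapped. The log2 fold changes were -0.13 (95% interval -0.32 to 0.06) for BSN and 0.04 (95% interval -0.17 to 0.26) for PCLO.

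At the ribbon itself, CTBP2 encodes RIBEYE from an internal promoter. The same gene encodes the widely expressed corepressor CtBP2, and a count per gene cannot separate the 2 products. CTBP2 was at 30.2, 27.4 and 27.96 FPKM in normal and 25.5, 26.3 and 23.8 in PVR samples. All PVR samples were lower than all normal samples, by a narrow gap. Its log2 fold change was -0.25 (SE 0.08, 95% interval -0.44 to -0.06; adjusted p = 0.155, edgeR).

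The L-type channel of photoreceptors has CACNA1F as its pore and CACNA2D4 as its auxiliary subunit, and CABP4 tunes its opening. Loss of any of them is known to cause forms of night blindness or cone and rod disease. CACNA1F was at 95.7, 89.0 and 91.2 FPKM in normal and 85.1, 87.7 and 79.8 in PVR samples. The groups did not overlap, and the log2 fold change of -0.20 (SE 0.08, 95% interval -0.39 to -0.01) had an adjusted p of 0.222 in edgeR.

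CACNA2D4 was at 131, 126 and 119 FPKM in normal and 139, 150 and 122 in PVR samples, and CABP4 was at 6.95, 7.42 and 4.84 against 7.61, 6.59 and 6.97. Both overlapped between groups. Their log2 fold changes were 0.06 (95% interval -0.18 to 0.30) for CACNA2D4 and 0.07 (95% interval -0.39 to 0.52) for CABP4, and normal 3 was the low sample of CABP4. Leaving out 1 sample turned both signs, to -0.01 for CACNA2D4 without PVR 2 and to -0.11 for CABP4 without normal 3.

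DNM1 (dynamin) and SYNJ1 (synaptojanin) retrieve vesicle membrane after release. DNM1 ranged from 70.3 to 81.9 FPKM in normal and from 71.9 to 76.8 in PVR samples. SYNJ1 ranged from 38.8 to 44.9 and from 44.7 to 45.6. Their log2 fold changes were -0.07 (adjusted p = 0.694, edgeR) and 0.04 (adjusted p = 0.814, edgeR).

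Single samples stood apart for several genes. PVR 2 held the lowest TMM-scaled CPM of the 6 samples for 20 of the 34 genes, and normal 3 the highest for 14 and normal 1 for 12. In FPKM, PVR 2 was lowest for 14 genes and normal 2 for 11. Against the mean FPKM of the other PVR samples, PVR 2 was at 0.425 times for SYT2, 0.706 for CPLX4, 0.740 for STX1A and 0.743 for CPLX1, but at 1.22 times for UNC13B and 1.20 for STX3. Without PVR 2 the median log2 fold change of the 34 genes was -0.11. Against the mean FPKM of the other normal samples, normal 3 was at 1.61 times for RIMS1 and 1.59 for CPLX1, but at 0.673 for CABP4. The median coefficient of variation of FPKM was 9.84% in normal and 7.08% in PVR samples.

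**Figure D3:**
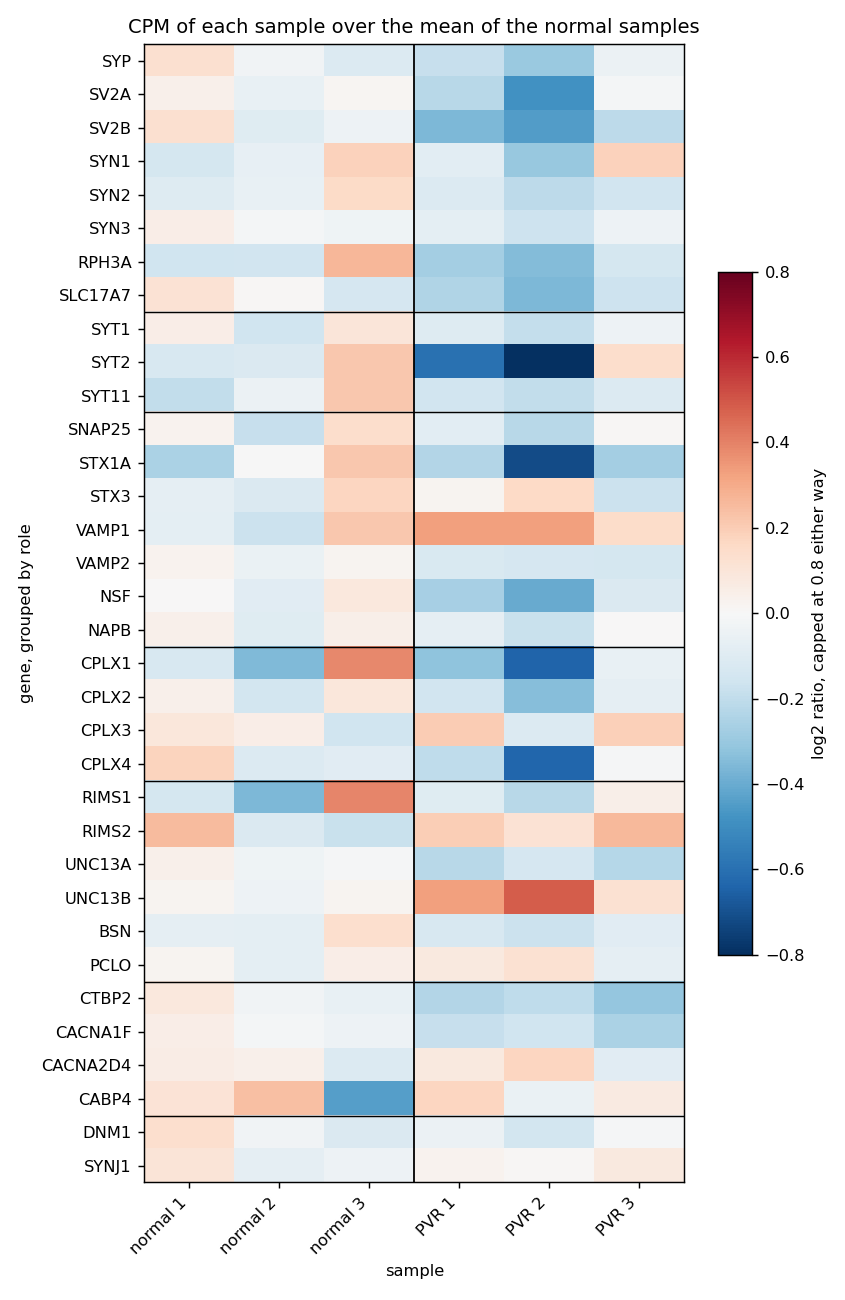
Colour shows the log2 ratio of the TMM-scaled CPM in each sample (x axis) to the mean of the 3 normal samples, for each of the 34 genes (y axis, grouped by role), with red for higher, blue for lower and colours capped at 0.8. PVR 2 has the deepest blue cells (SYT2, STX1A, CPLX1 and CPLX4) and UNC13B is red in all 3 PVR samples.

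Shares within a family of paralogs do not depend on the scaling between samples. UNC13B made up 83.8%, 84.0% and 84.3% of the summed FPKM of UNC13A and UNC13B in normal 1 to 3 and 88.5%, 89.0% and 87.0% in PVR 1 to 3. The groups were apart by more than their spread, 84.0 ± 0.253% against 88.2 ± 1.04% (SD, n = 3 each). A 2-sided exact permutation test gave p = 0.1, the smallest that 3 samples against 3 allow, and 0.533 after Benjamini-Hochberg adjustment over the 16 shares tested in 9 families.

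CPLX3 rested at 17.7%, 20.2% and 16.9% of the complexin FPKM in normal and at 22.8%, 23.9% and 20.5% in PVR samples. Its groups did not overlap either, although normal 2 and PVR 3 were nearly equal (exact permutation p = 0.1, adjusted 0.533). CPLX4 had 68.5%, 65.7% and 64.5% in normal against 62.8%, 60.3% and 64.9% in PVR samples, which overlapped (exact permutation p = 0.2). VAMP2 had 98.7% to 99.0% of the VAMP1 and VAMP2 total in normal and 98.5% to 98.7% in PVR samples, narrowly apart (exact permutation p = 0.1, adjusted 0.533). STX3 made up 94.8% to 95.7% of the syntaxin total in normal and 95.5% to 97.3% in PVR samples. The design could not reach an exact p under 0.05, and no adjusted p was below 0.533.

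**Figure D4:**
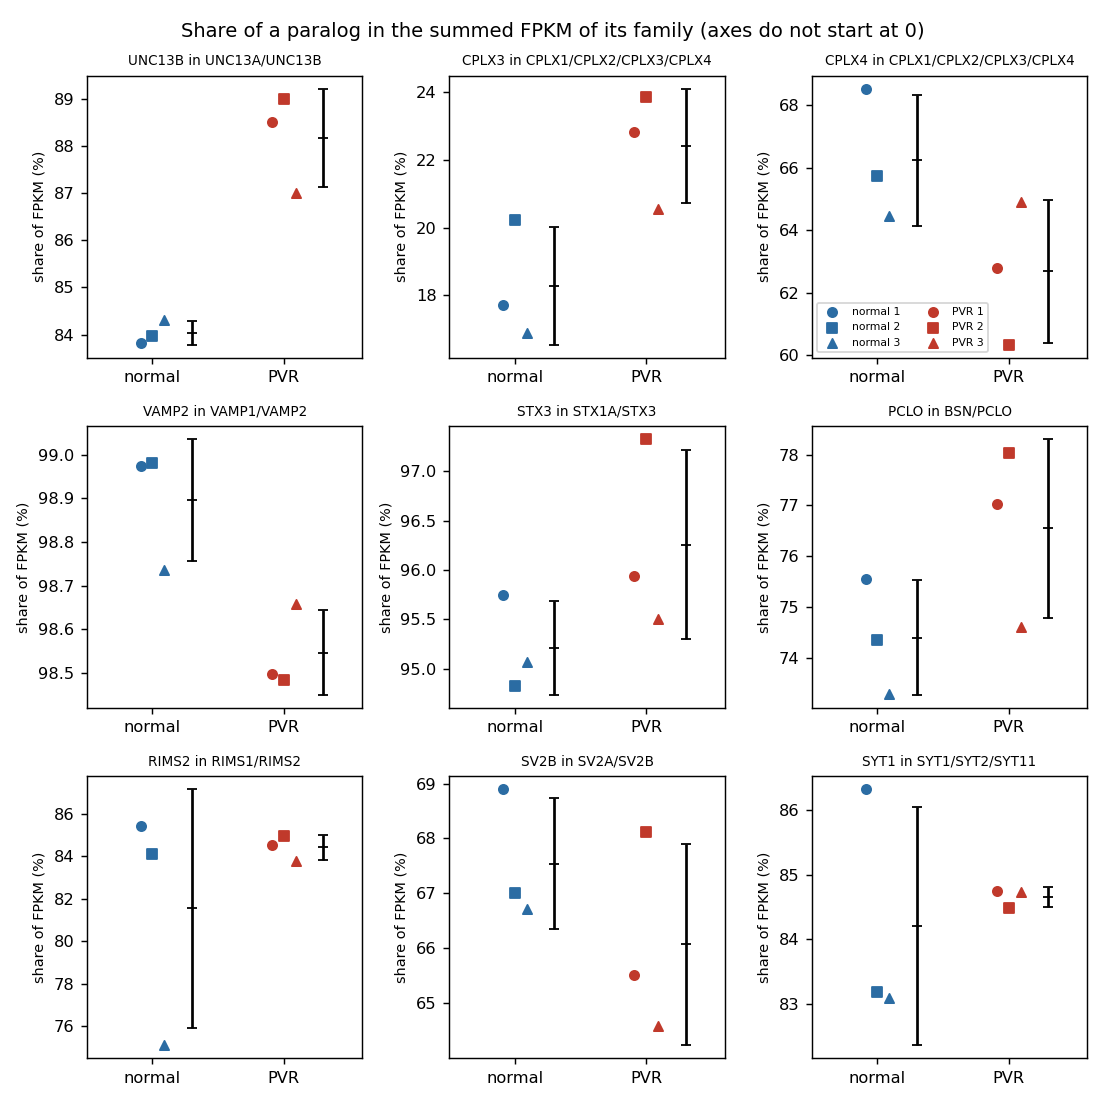
Share of one paralog in the summed FPKM of its family (y axis, percent) in each normal and PVR sample (x axis), for 9 shares, with mean and SD (n = 3) as bars beside the points. The axes differ and do not start at 0. UNC13B and CPLX3 lie higher in all 3 PVR samples, VAMP2 lies lower, and the groups of the other panels overlap.

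A wider list held 84 other presynaptic genes, all tested, with a median log2 fold change of -0.06 and 50 fitted lower. At an adjusted p under 0.05 in edgeR, STXBP5L rose and SYNJ2 fell (1.19% of the 84 each), beside the 1.09% and 0.615% of all genes. Among 13 further genes of the contact between photoreceptors and bipolar cells, RGS7 rose and none fell, with a median of -0.08. The 1 call is 7.69% of the 13, beside the 1.09% of all genes called higher. SYNJ2 was the only called gene of both lists with a log2 fold change beyond 1.

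STXBP5L, a tomosyn that competes with the vesicle SNARE, was at 2.38, 2.02 and 2.30 FPKM against 3.49, 3.78 and 3.31. It rose by a log2 fold change of 0.59 (SE 0.09; adjusted p = 0.0342, edgeR), passing in 8 of 15 alternative settings.

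RGS7, which speeds the shutdown of the metabotropic glutamate signal in bipolar cells, was at 16.7, 13.1 and 14.7 FPKM in normal and 28.4, 28.4 and 30.8 in PVR samples. It rose by 0.91 log2 units (SE 0.10; adjusted p = 0.0125, edgeR), and it passed in 14 of 15 settings, the exception being without PVR 1 (adjusted p = 0.106). SYNJ2, a lipid phosphatase related to SYNJ1, was at 0.867, 1.21 and 0.777 FPKM in normal and 0.309, 0.385 and 0.423 in PVR samples. It fell by 1.42 on the log2 scale (SE 0.26; adjusted p = 0.0463, edgeR) and passed in 7 of 15 settings. The relatives SYNJ1 and SYNJ2 thus had different outcomes, but the difference between them was not tested.

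The 3 highest estimates of these lists were those of RGS7, CADPS2 and AP2S1 and the 3 lowest those of SYNJ2, SYNPR and SYT17, and of these only RGS7 and SYNJ2 passed in edgeR. CADPS2, which acts in dense-core vesicle release, was at 1.75, 1.53 and 2.36 FPKM in normal and 3.14, 2.55 and 4.31 in PVR samples (adjusted p = 0.147). SYNPR, synaptoporin, a vesicle protein related to SYP, was at 7.67, 8.80 and 8.74 FPKM against 4.90, 4.04 and 7.18 (adjusted p = 0.132). AP2S1, an adaptor subunit of endocytosis, had a log2 fold change of 0.62 (SE 0.30), with normal 3 well above the other normal samples. SYT17 had -0.67 (SE 0.38) at 44 to 142 counts per sample.

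**Figure D5:**
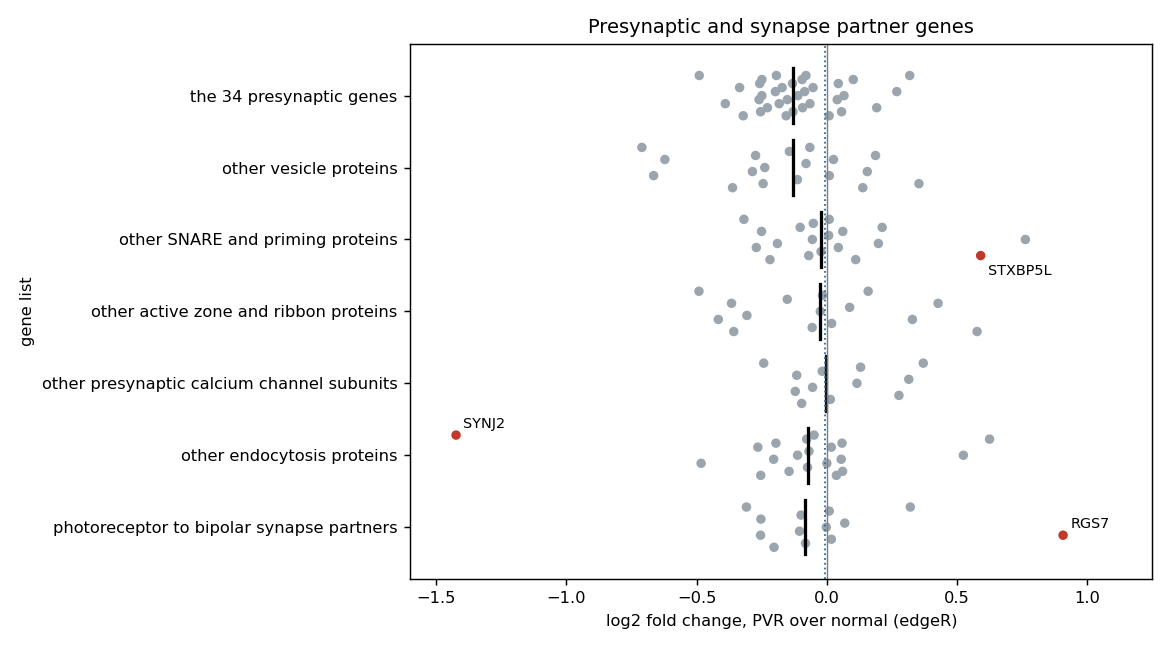
The edgeR log2 fold change of PVR over normal (x axis) for every gene of the 34 and of the wider presynaptic and synapse lists (y axis), with a black bar at each list's median and a dotted line at the median of all genes. Red points are the genes past an adjusted p of 0.05, which are STXBP5L, SYNJ2 and RGS7, and none of them is among the 34.

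Markers of the cells that carry these synapses were read beside them. Summed CPM of 8 rod genes ranged from 13600.4 to 15588 in normal and from 10581 to 13075 in PVR samples, with no overlap and no gene called in edgeR. In FPKM the same sums were 5275 to 6169.8 and 4421 to 5377, which overlapped. The 8 cone genes summed to 1426 to 2085 CPM in normal and 1244 to 1621 in PVR samples. Bipolar markers (10 genes) overlapped, at 1254 to 1395 and 1187 to 1340 CPM, as did the 11 amacrine and horizontal cell markers, at 640 to 669 and 608 to 687 CPM. Ganglion cell markers (10 genes) ran from 1000 to 1379 CPM in normal and from 749 to 1230 in PVR samples. PVR 2 was the lowest of all 6 samples for each of these 5 marker sums.

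Markers of other cells were read as well. Oligodendrocyte genes (8) summed to 249 to 1209 CPM in normal and 137 to 156 in PVR samples, and 3 were called lower in edgeR (MAG, MOBP and ERMN). Microglia and macrophage genes (6) summed to 21.0 to 38.7 against 46.0 to 63.6 CPM, with every gene higher in all PVR samples and none called. Pigment epithelium genes (7 tested) summed to 456 to 654 against 334 to 353 CPM, and 2 were called lower in edgeR (TTR and LRAT). Over all genes, 0.615% were called lower. Of the 7, 6 were fitted lower, while BEST1 was higher in all PVR samples (log2 fold change 0.53, adjusted p = 0.215, edgeR). Müller glia and astrocyte genes (8) summed to 2426 to 3145 against 2295 to 2463 CPM. Of these, GLUL (log2 fold change -1.11) and RLBP1 (-0.89) were called lower in edgeR, while GFAP was at 1.39 with the groups apart and an adjusted p of 0.143. No neuronal marker was at 0 in any sample, while PAX2 was at 0 in 1 sample and PMEL in 2. The part of these cell types in the levels of the presynaptic genes was not tested.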

How the data were processed

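Retinal poly-A RNA of 3 normal and 3 PVR samples was sequenced, and groups follow the sample titles. HISAT2 alignment to OryCun2.0 and htseq-count gave the raw counts per gene that the authors deposited. The authors also deposited FPKM values, which gave the same gene length in every sample when set against the counts (largest relative difference 4.24e-09). The strand setting of the counting is not given in the sources used here, and the library kit is named differently in the methods and the labels.

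Counts were taken into edgeR 4.0.16 (R 4.3.3). The default filter kept 18697 of 28788 genes, TMM factors were applied, and PVR was tested against normal by quasi-likelihood with no covariate. Benjamini-Hochberg adjustment ran over all genes tested. The standard error is the log2 fold change divided by the square root of the F statistic, and intervals are at 95%. Alternatives used DESeq2 1.42.0, limma 3.58.1 (voom, and log2 FPKM with a pseudocount of 1 or 0.1), other factors and filters, the replicate number as a block, and fits without each sample in turn. The scripts were tested on simulated data.

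Depth ranged from 31904593 to 43035080 counts. The genes and lists were chosen with earlier results of these data known. Values in every sample are given for the 6 largest fold changes, the 3 highest mean FPKM values and named ribbon synapse genes. Genes of the wider lists are named for an adjusted p under 0.05 or for the 3 largest changes in each direction. The counts of groups that do not overlap were added after seeing the data. Figures were drawn with matplotlib 3.10.9. Some genes of the lists are not reported here.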

Additional observations from a re-analysis of the deposited data

How the results depend on the processing

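Of the 15 alternatives, DESeq2 was the only one that called any of the 34 genes, 1 higher and 1 lower. Over all genes it called 1095 higher and 709 lower, where edgeR called 203 and 115. The lower calls over all genes were 74 with limma-voom, 55 on log2(FPKM + 1) and 66 on log2(FPKM + 0.1). Leaving out 1 sample at a time gave 16 to 516 higher and 6 to 250 lower calls, the fewest without PVR 1, with 0 calls among the 34 genes each time. The median log2 fold change of the 34 was -0.056 and -0.059 on those FPKM scales. Genes of the 34 with PVR above normal without overlap numbered 1 to 4 with a sample left out, while the share of all genes was 15.6% to 22.8%. Those below numbered 10 to 16 then (16.9% to 23% of all genes), 6 with upper-quartile factors (12.6%) and 4 in FPKM (9.69%).

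Signs turned for 6 of the 34 genes. On log2(FPKM + 1) and log2(FPKM + 0.1), SYN1 was at 0.0096 and 0.0099, DNM1 at 0.0076 and 0.0077 and RIMS1 at 0.012 and 0.016. With a sample left out, SYN1 ranged from -0.19 to 0.056, STX3 from -0.074 to 0.11, RIMS1 from -0.23 to 0.17, CACNA2D4 from -0.0053 to 0.12, CABP4 from -0.11 to 0.21 and DNM1 from -0.11 to 0.0094. The cause was not tested.

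Deviations of same-numbered normal and PVR samples from their group means had correlations of -0.0129, 0.0734 and 0.0417. Whether the numbers pair the samples is not given in the sources used here. Correlations with 3 samples a group cannot settle it. A fit with the replicate block called 62 genes higher and 30 lower, and none of the 34, whose median stayed at -0.13. With 3 samples a group, the intervals given with the estimates show the precision reached.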
